A study of Mus musculus with 186 samples.

Results

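The genes described here are 31 transcripts that mark microglia, the resident macrophages of the brain, together with the genes of the complement protein C1q. They were taken by symbol from a table of 28338 genes, and all 31 were found and all passed the filter on low counts in every comparison. Bulk RNA-seq libraries in 36 groups had been made from frozen, dissected mouse brain tissue in which Akap11, the gene of a scaffold for protein kinase A, was intact or mutant. The 6 regions were striatum (STR), thalamus (TH), hippocampus (HP), substantia nigra (SN) and 2 areas of cortex, prefrontal (PFC) and somatosensory (SSC), each sampled at 4 and at 12 weeks of age. Each region and age held 3 genotypes, WT, Akap11 +/- (HET) and Akap11 -/- (KO), with 5 or 6 libraries a group. No transgene or drug is named in the labels, and for strain and sex the sources used here give nothing. The labels do not say that libraries of a group came from separate animals, so the p-values below measure the spread between these libraries, which may in part be technical.

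The libraries held 20.8 to 73.3 M counts (mean 46.1 M, SD 9.60 M). Levels are CPM, that is, counts scaled to a common library size with factors computed over all libraries. Akap11 itself, which checks the labels, stood at 11.7 to 21.9 CPM in the 4-week KO libraries and 12.5 to 24.5 CPM in the 12-week ones. The 12-week WT libraries held 176 to 380 CPM and the HET libraries 90.9 to 195 CPM. At 4 weeks HET held 97.8 to 222 CPM, and WT held 44.8 to 436 CPM. The value of 44.8 CPM belongs to the library labelled 92 of 4-week WT nigra, which lies below the 5 other WT libraries of that set (197 to 245 CPM) and below its HET libraries (97.8 to 139 CPM). Region markers went against the label in 12 further 4-week libraries: cortical excitatory neuron genes were high in WT 92 and KO 51, 161 and 163 of the striatum, striatal genes were high in HET 93 and 162 of somatosensory cortex, thalamic genes were low in WT 913, 914 and 23 of the thalamus, and dopamine neuron genes were low in WT 42 and KO 91 and 44 of the nigra. The comparisons that hold any of these 13 libraries, called doubted below, were fitted again without them, and the counts, medians and calls that moved are given beside the results. The 13 were chosen after the data were seen, and off-region markers were not confined to them. Against WT, striatal markers were higher in 10 of 10 in 12-week HET somatosensory cortex (median log2 change 0.70) and 9 of 10 in 4-week KO hippocampus (0.90). Thalamic markers were higher in 9 of 10 in 12-week HET and KO hippocampus (0.73 and 0.72). None of these was called.

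Microglia depend on the receptor Csf1r for survival, sense their surroundings through receptors such as Cx3cr1, P2ry12 and Trem2, and clear debris through Fc receptors, complement receptors and lysosomal proteases. C1q is the recognition protein that starts the classical complement cascade. In the brain it is made mainly by microglia, and during development it can mark synapses that microglia then engulf. The transcription factors PU.1 (Spi1), Irf8 and Sall1 set the identity of these cells, and PU.1 binds purine-rich sites around a GGAA core.

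C1qa, C1qb and C1qc encode the 3 chains of C1q and lie beside each other on the minus strand of chromosome 4, within 18675 bases (GRCm38). C1qb spans 136880129 to 136886187, C1qc 136889804 to 136893065 and C1qa 136895917 to 136898803, each with 3 exon blocks. Promoters of 5 genes are printed: both C1q promoters matched, that of the ADP receptor gene P2ry12, that of Inpp5d, which differed by region more often than any other of the 31, and that of Fcer1g, which was called with age in 5 regions. The first 4 hold the letters searched for, and Fcer1g, which does not, is shown beside them. Each runs 5′ to 3′ on the gene's own strand from 250 bases before to 50 bases after the RefSeq start site (build GRCm38.p6). Capitals mark the letters AGGAAGT on either strand.
C1qb promoter, chr4:136886151-136886450, minus strand: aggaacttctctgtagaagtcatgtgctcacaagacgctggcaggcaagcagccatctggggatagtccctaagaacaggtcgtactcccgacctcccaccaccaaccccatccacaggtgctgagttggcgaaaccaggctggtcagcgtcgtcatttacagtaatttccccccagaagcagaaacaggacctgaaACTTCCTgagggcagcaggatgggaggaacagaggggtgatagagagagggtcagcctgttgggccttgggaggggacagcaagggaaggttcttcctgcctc
C1qc promoter, chr4:136892865-136893164, minus strand: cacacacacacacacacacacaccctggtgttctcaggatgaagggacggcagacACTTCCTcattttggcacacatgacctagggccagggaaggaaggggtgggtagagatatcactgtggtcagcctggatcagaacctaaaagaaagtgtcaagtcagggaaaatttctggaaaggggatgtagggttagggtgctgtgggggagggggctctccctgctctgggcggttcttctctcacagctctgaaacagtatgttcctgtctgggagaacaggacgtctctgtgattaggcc
P2ry12 promoter, chr3:59262936-59263235, minus strand: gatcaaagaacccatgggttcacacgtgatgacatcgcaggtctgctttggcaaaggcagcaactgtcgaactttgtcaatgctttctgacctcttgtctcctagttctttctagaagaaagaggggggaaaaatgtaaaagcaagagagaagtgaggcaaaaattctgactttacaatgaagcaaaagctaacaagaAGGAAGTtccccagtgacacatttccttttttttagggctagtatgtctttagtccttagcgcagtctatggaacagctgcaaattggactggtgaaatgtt
Inpp5d promoter, chr1:87620062-87620361, plus strand: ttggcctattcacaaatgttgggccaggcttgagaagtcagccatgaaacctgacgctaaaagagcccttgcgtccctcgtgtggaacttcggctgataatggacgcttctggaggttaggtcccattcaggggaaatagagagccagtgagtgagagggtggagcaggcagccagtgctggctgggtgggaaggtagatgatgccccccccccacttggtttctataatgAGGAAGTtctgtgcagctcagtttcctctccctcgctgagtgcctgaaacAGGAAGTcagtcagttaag
Fcer1g promoter, chr1:171234300-171234599, minus strand: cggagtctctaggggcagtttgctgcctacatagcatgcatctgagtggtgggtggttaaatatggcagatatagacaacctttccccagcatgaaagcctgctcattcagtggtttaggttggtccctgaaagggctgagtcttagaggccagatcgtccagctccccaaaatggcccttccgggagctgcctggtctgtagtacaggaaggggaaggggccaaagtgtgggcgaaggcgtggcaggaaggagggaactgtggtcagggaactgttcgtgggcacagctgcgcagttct
The match begins at position -53 in C1qb, -195 in C1qc (both on the opposite strand, so printed as ACTTCCT) and -52 in P2ry12, counted from the start site. Inpp5d holds 2 matches and Fcer1g 0. RefSeq promoters were matched for 24 of the 31 genes, and 9 of those 24 (37.5%) held AGGAAGT: C1qb, C1qc, Cd53, Ctss, Fcrls, Inpp5d, P2ry12, Ptprc and Sall1. Of all 27025 genes with a promoter of this length, 10.7% held it. The longer GAGGAAGT, which contains AGGAAGT, was in 4 of the 24 (16.7%) and in 3.69% of all genes. The composite ETS and interferon-regulatory-factor element was in 1 of 24 (4.17%, Cd68) and in 3.16% of all genes. A match of letters is a description only.

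Per kilobase of exon, averaged over the 12 WT groups, C1qb (33.2 CPM per kb), Ctss (32.3), which encodes the lysosomal protease cathepsin S, and C1qa (31.5) were the most abundant of the 31. C1qc (16.6) and Csf1r (15.9) followed. Tyrobp, the signalling adaptor of TREM2, stood at 13.1, the fractalkine receptor gene Cx3cr1 at 10.4, P2ry12 at 8.50 and Tmem119, a microglial membrane protein gene, at 8.30 CPM per kb. Of the transcription factor genes Spi1 (0.895) and Irf8 (0.557 CPM per kb) were at the other end, with Ptprc (CD45) at 0.119, while Sall1 stood at 4.27 CPM per kb, rank 17. Some exons are shared with other genes: Csf1r with Hmgxb3, Cx3cr1 with Gm33858 and P2ry12 with Med12l on the opposite strand, and Itgam with Gm49368 on the same strand. The sources used here do not say whether the counting used strand, so reads in those stretches cannot be assigned with certainty.

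The first comparison set each WT region against the mean of the other 5 at the same age. The comparisons of an age share their libraries, so a high or low region also shifts the mean that every other region is set against. Striatum held the most of these transcripts at 4 weeks. Of the 31 genes 31 were higher there, 25 rose past the test (edgeR's quasi-likelihood test, adjusted p under 0.05) and none fell. The median difference was 0.41 on the log2 scale. Across all genes 52.9% were called in this comparison (26.8% as higher), so calls were common. At 12 weeks 30 of 31 were higher in striatum, 22 rose and none fell (median 0.24), against 67.3% of all genes called and 32.5% called higher. Without WT 4 of 12-week striatum 13 were called. In bulk tissue a higher level can come from more microglia or from more RNA per cell, and these cannot be told apart.

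Cd68, a lysosomal glycoprotein of phagocytes, differed most. In the 5 WT striatal libraries at 4 weeks it stood at 12.4, 13.3, 13.4, 15.1 and 15.2 CPM, against 4.40 to 7.79 CPM in the 28 WT libraries of the other regions. Every striatal library lay above every other, and the log2 difference was 1.24 (SE 0.08, adjusted p = 9.85e-14). The same held at 12 weeks, with 14.8, 15.9, 16.0, 16.8 and 20.4 CPM in striatum and 4.28 to 9.75 CPM in the 25 other libraries (1.32, SE 0.08, adjusted p = 2.95e-15). Irf8, a transcription factor of the macrophage lineage, came next. It stood at 4.88, 5.87, 6.27, 7.45 and 8.08 CPM in 4-week striatum (0.95, SE 0.13, adjusted p = 4.71e-07). Its lowest striatal value overlapped the prefrontal libraries, the highest of which reached 5.30 CPM. At 12 weeks the difference in Irf8 was 0.92 (SE 0.11, adjusted p = 1.80e-08).

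By role, all 10 surface receptor genes rose in 4-week striatum, among them Gpr34, a lysophospholipid receptor gene (0.75, SE 0.19, adjusted p = 0.00145), P2ry12 (0.67, SE 0.17, adjusted p = 0.00156) and Csf1r (0.53, SE 0.07, adjusted p = 2.75e-07). Csf1r stood at 110, 121, 137, 139 and 143 CPM in striatum and at 72.3 to 125 CPM elsewhere, where the highest library was from nigra. All 5 lysosome and phagocyte genes rose as well, as did 3 of 4 leukocyte and integrin genes. Of the 3 C1q genes only C1qc rose at 4 weeks (0.33, SE 0.11, adjusted p = 0.0105). At 12 weeks C1qc (0.26, SE 0.08, adjusted p = 0.00597) and C1qb (0.20, SE 0.08, adjusted p = 0.0282) rose. The 12-week C1qb call was lost without any of striatal WT 1, 2 or 4 (adjusted p up to 0.114), and the 4-week C1qc call without striatal WT 914 (adjusted p = 0.0507). C1qa (0.28, adjusted p = 0.0991) and C1qb (0.30, adjusted p = 0.0989) did not pass at 4 weeks, and without the nigral library labelled 92 they did (adjusted p = 0.00300 and 0.00290). Fitted without the doubted libraries, 28 of the 31 rose in 4-week striatum (median 0.45), C1qa (adjusted p = 0.00309) and C1qb (adjusted p = 0.00228) among them, against 60% of all genes called.

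Markers of other cells moved with the striatal difference. All 10 oligodendrocyte markers rose in WT striatum at both ages (median 0.93 at 4 weeks and 0.68 at 12 weeks). Of 10 border macrophage markers 5 fell at 4 weeks and 8 at 12 weeks, and of 10 astrocyte markers 4 fell and 2 rose at 4 weeks and 7 fell at 12 weeks. Of 11 endothelial and mural markers 1 rose at 4 weeks and 5 fell at 12 weeks. The summed level of the border macrophage markers was 19.1 to 23.2 CPM in 4-week WT striatum and 13.4 to 18.7 CPM at 12 weeks, with none of the 10 at 0 throughout. The part of these cells in the result was not tested. Among signals that sustain or restrain microglia, 12 of 31 tested genes rose and 4 fell in 4-week striatum: Il34, a Csf1r ligand made by neurons, differed by 0.96 (SE 0.23, adjusted p = 0.000837) and Cx3cl1, the ligand of Cx3cr1, by 1.08 (SE 0.14, adjusted p = 1.60e-07), while Csf1, the other Csf1r ligand, differed by -0.50 (SE 0.13, adjusted p = 0.00195). Of 31 other complement genes 6 rose and 8 fell there. C7, of the terminal pathway, differed by 1.48 (SE 0.28, adjusted p = 6.03e-05) and C1ra, the C1r protease gene, by -2.02 (SE 0.42, adjusted p = 0.000147).

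**Figure D1:**
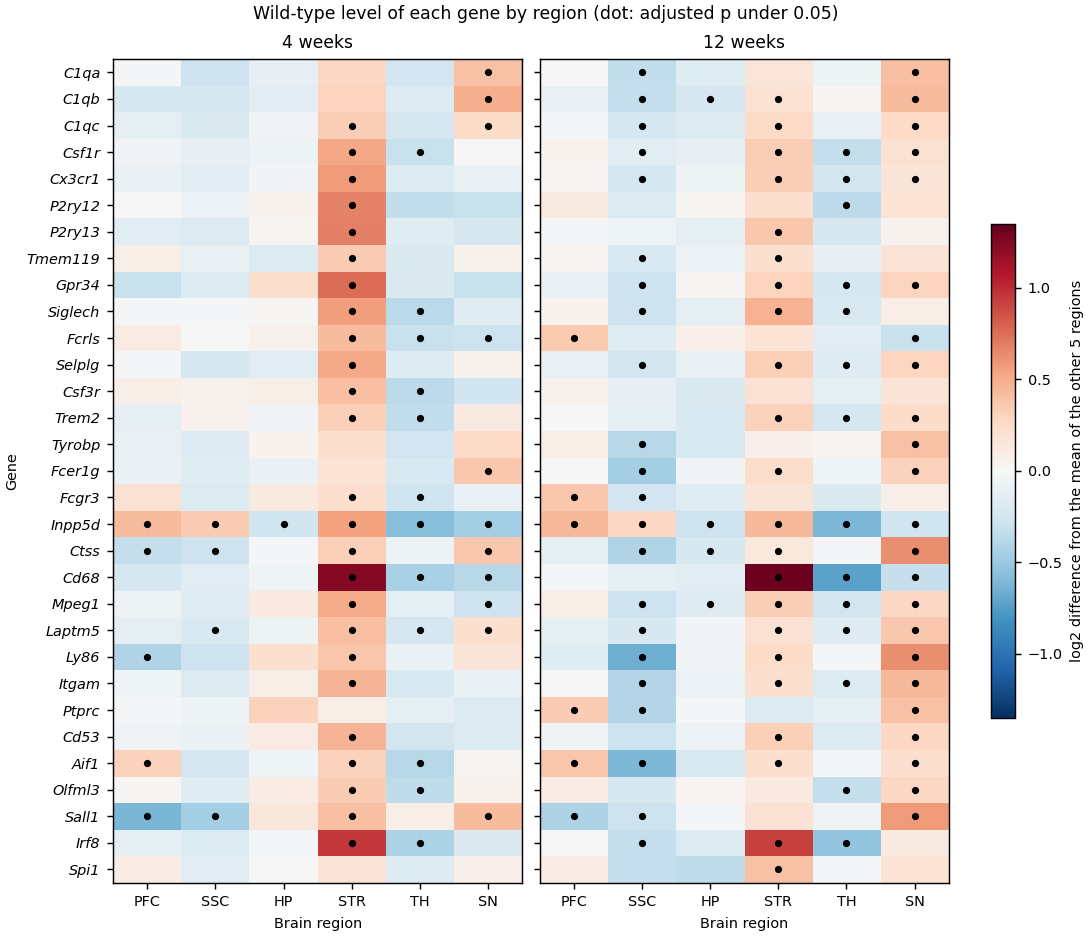
Log2 difference of each of the 31 genes (rows) in WT between a region (columns) and the mean of the other 5, at 4 weeks (left) and 12 weeks (right); red is higher, blue is lower, and a dot marks an adjusted p under 0.05. The striatal column is higher for 31 genes at 4 weeks and 30 at 12 weeks, with Cd68 and Irf8 strongest, the nigral column is higher for 28 at 12 weeks, and the somatosensory and thalamic columns are mostly lower.

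In 12-week substantia nigra 28 of 31 genes were higher, 20 rose and 3 fell (median 0.26), against 67.8% of all genes called and 35.7% called higher. At 4 weeks 7 rose and 4 fell (median -0.00), against 59% of all genes, and 6 were called without the library labelled 92. Ctss stood at 66.6, 70.6, 71.0, 74.1 and 79.2 CPM in 12-week nigra, above every other 12-week WT library (35.7 to 61.0 CPM), and differed by 0.63 (SE 0.06, adjusted p = 6.86e-11). Ly86, which encodes the lymphocyte antigen MD-1, differed by 0.63 (SE 0.08, adjusted p = 1.03e-07). Sall1, a factor of microglial identity, stood at 27.0, 27.1, 29.5, 33.0 and 33.2 CPM and in the other regions at 12.2 to 25.96 CPM, again with no overlap (0.57, SE 0.09, adjusted p = 1.60e-06). All 3 C1q genes rose in 12-week nigra: C1qb by 0.43 (SE 0.08, adjusted p = 1.65e-05), C1qa by 0.41 (SE 0.09, adjusted p = 0.000188) and C1qc by 0.26 (SE 0.08, adjusted p = 0.00522). The genes that fell there were Cd68 (-0.31, SE 0.09, adjusted p = 0.00250), Fcrls, an Fc-receptor-like gene (-0.30, SE 0.09, adjusted p = 0.00299), and Inpp5d (-0.27, SE 0.07, adjusted p = 0.000741). Cd68 thus passed the test in opposite directions in striatum and nigra, but the mean that nigra was set against holds the high striatal libraries. Its 12-week WT means were 16.8 CPM in striatum, 7.84 in prefrontal cortex, 6.62 in nigra and 5.23 in thalamus, with hippocampus and somatosensory cortex between prefrontal cortex and nigra. Nigra against the regions other than striatum was not tested.

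The C1q rise in 4-week nigra rested on 1 library. C1qa was called there (0.40, adjusted p = 0.0106), as were C1qb (0.49, adjusted p = 0.00360) and C1qc (0.25, adjusted p = 0.0323). Without the library labelled 92 the values were 0.11 (adjusted p = 0.302), 0.17 (adjusted p = 0.126) and 0.11 (adjusted p = 0.276). That library held 77.4 CPM of C1qa, and the 5 others 21.8, 27.8, 30.8, 32.8 and 39.7 CPM. Without all 13 doubted libraries C1qb was called (0.26, adjusted p = 0.0217), C1qa and C1qc were not, and 9 of the 31 genes were called in 4-week nigra (median -0.00, 57.9% of all genes called). At 12 weeks all 10 oligodendrocyte markers and 7 of 10 astrocyte markers also rose in nigra (2 astrocyte markers fell), and of 26 tested genes of activated microglia 16 rose and 4 fell. Spp1, osteopontin, differed by 3.93 (SE 0.21, adjusted p = 2.93e-16), Apoe by 0.41 (SE 0.07, adjusted p = 1.29e-05) and Lpl, lipoprotein lipase, by -1.22 (SE 0.18, adjusted p = 9.98e-07). Of 32 other complement genes 13 rose and 7 fell, among them C3 (2.29, SE 0.37, adjusted p = 2.94e-06), C4b (0.99, SE 0.17, adjusted p = 8.76e-06) and Nptx2, a neuronal pentraxin (-3.98, SE 0.27, adjusted p = 8.64e-14). Their part in the nigral levels was not tested.

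Somatosensory cortex and thalamus were the low regions. In 12-week somatosensory cortex 30 of 31 genes were lower, 21 fell and 1 rose (median -0.27), against 56.4% of all genes called and 27.7% called lower. At 4 weeks 3 fell and 1 rose (38.4% of all genes called). With the doubted libraries left out 10 were called there, against 50.4% of all genes. Without the nigral library 92 alone 10 were called, and without any of somatosensory WT 142, 23 or 92 only 2. Ly86 stood at 4.42, 5.03, 5.46, 6.01 and 6.49 CPM in 12-week somatosensory cortex (-0.66, SE 0.09, adjusted p = 6.63e-07), and the only other 12-week WT libraries as low were from prefrontal cortex and hippocampus, whose lowest values were 6.24 and 6.09 CPM. Aif1, which encodes the microglial stain IBA1, differed by -0.60 (SE 0.10, adjusted p = 4.12e-06). C1qa (-0.33, SE 0.09, adjusted p = 0.00383), C1qb (-0.32, SE 0.08, adjusted p = 0.00162) and C1qc (-0.23, SE 0.09, adjusted p = 0.0210) all fell, the last not without somatosensory WT 5 (adjusted p = 0.109). The gene that rose was Inpp5d. In thalamus 12 fell and none rose at 4 weeks (median -0.22, 48.1% of all genes called, 22.2% lower), and 14 fell and none rose at 12 weeks (median -0.18, 66.9% called, 32.7% lower). No C1q gene was among them. The 12 calls at 4 weeks became 20 without the nigral library 92 and 13 without all doubted libraries (median -0.25, 54.8% of all genes called), C1qc then among them (-0.27, adjusted p = 0.0335). The 14 calls at 12 weeks became 9 without thalamic WT 5. Cd68 in 12-week thalamus stood at 4.28, 5.09, 5.38, 5.49 and 5.89 CPM, below every library of the other regions (-0.72, SE 0.09, adjusted p = 4.12e-08). All 10 oligodendrocyte markers rose in thalamus at both ages and all 10 fell in somatosensory cortex. Border macrophage markers fell in 3 of 10 in thalamus at each age, and at 12 weeks 7 of 11 endothelial and mural markers rose there, while 4 of 11 fell in somatosensory cortex. Their part in the regional differences was not tested.

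Prefrontal cortex and hippocampus lay between. In prefrontal cortex 2 genes rose and 3 fell at 4 weeks (43% of all genes called), and 5 rose and 1 fell at 12 weeks (57%). In hippocampus 1 fell at 4 weeks (36.4%) and 4 fell at 12 weeks (54.4%), with none higher. The 4-week calls without the doubted libraries were 7 in prefrontal cortex (54.8% of all genes called) and 3 in hippocampus (49.4%). Without WT 1 of 12-week hippocampus 13 were called there, and without WT 3 or 4 only 2. The genes that rose in 12-week prefrontal cortex included Aif1 (0.38, SE 0.09, adjusted p = 0.000563), Fcgr3 (0.37, SE 0.08, adjusted p = 0.000498) and Fcrls (0.36, SE 0.08, adjusted p = 0.000488). Beside them, border macrophage markers rose in prefrontal cortex, 7 of 10 at 4 weeks (median 0.73) and 10 of 10 at 12 weeks (median 1.27), with a summed level of 20.7 to 54.0 CPM and 25.1 to 47.3 CPM. At 12 weeks 3 of 4 tested neutrophil and monocyte genes (S100a9, Ccr2 and Lcn2) rose as well, and all 10 oligodendrocyte markers fell at both ages. Their part was not tested. In hippocampus 5 of 10 border macrophage markers rose at 4 weeks, and 7 of 11 endothelial and mural markers fell at 12 weeks. Sall1 was lowest in prefrontal cortex, at 11.3, 13.1, 14.6, 19.9 and 20.2 CPM at 4 weeks (-0.62, SE 0.15, adjusted p = 0.000936) and -0.42 on the log2 scale at 12 weeks (SE 0.10, adjusted p = 0.000479). Inpp5d encodes SHIP1, a phosphatase that restrains Fc receptor and TREM2 signals, and was the only one of the 31 called in all 12 regional comparisons. It was higher in prefrontal cortex (0.42 and 0.44 at 4 and 12 weeks), somatosensory cortex (0.34 and 0.28) and striatum (0.54 and 0.44). It was lower in hippocampus (-0.27 and -0.28), thalamus (-0.58 and -0.60) and nigra (-0.46 and -0.27). The 12 SEs were between 0.06 and 0.09, and only the 4-week hippocampal call was lost on leaving out a library (hippocampal WT 913 or 914, adjusted p up to 0.0582).

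Over the 6 regions, 22 of the 31 genes had their highest WT mean in striatum at 4 weeks and 6 in nigra, while 18 had their lowest in thalamus and 7 in somatosensory cortex. At 12 weeks 14 were highest in nigra and 13 in striatum, and 19 were lowest in somatosensory cortex and 8 in thalamus. The ratio of the highest to the lowest regional mean had a median of 1.52 at 4 weeks (1.20 for Spi1 to 2.58 for Cd68) and 1.47 at 12 weeks (1.25 for Csf3r to 3.21 for Cd68). For C1qa the order at 12 weeks was nigra (41.8 to 47.4 CPM), striatum (28.0 to 46.0), prefrontal cortex (28.6 to 43.6), thalamus (29.8 to 38.9), hippocampus (27.0 to 38.4) and somatosensory cortex (25.2 to 31.2), and every pair of neighbours overlapped. Of the 149 regional calls over both ages, 96 held under every alternative setting and with every library left out.

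The mean of log2(CPM + 1) over the 31 genes places each library on the same scale. In WT its group mean ran at 4 weeks from 3.57 in thalamus through 3.63 in somatosensory cortex, 3.69 in prefrontal cortex, 3.74 in nigra and 3.76 in hippocampus to 4.06 in striatum. At 12 weeks it ran from 3.69 in somatosensory cortex through 3.76, 3.80 and 3.93 in thalamus, hippocampus and prefrontal cortex to 4.08 in nigra and 4.11 in striatum.

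**Figure D2:**
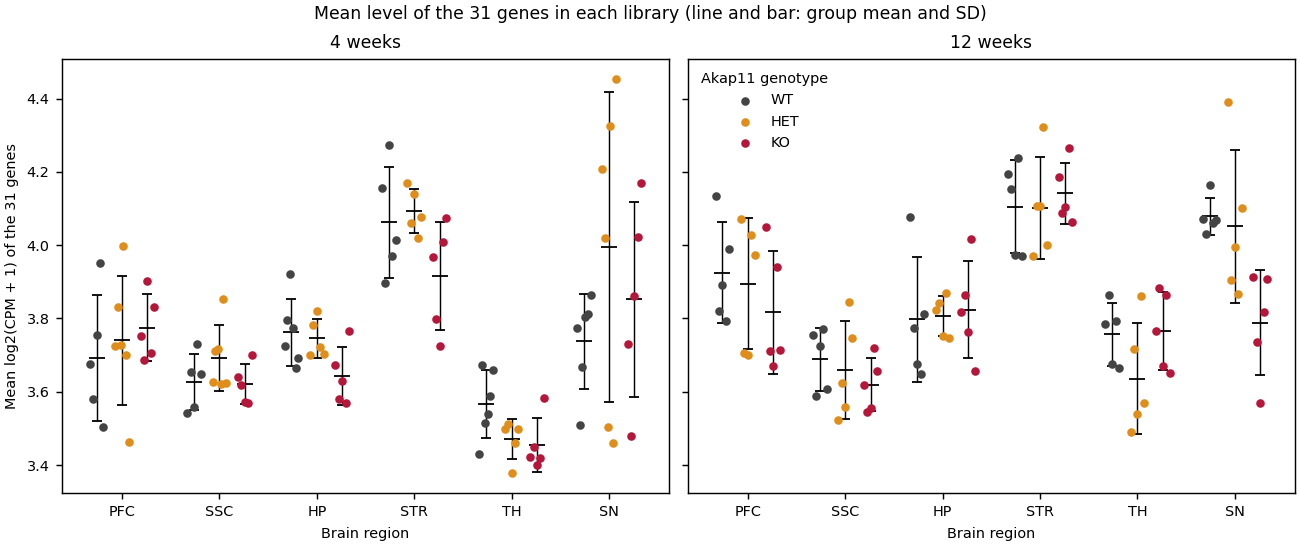
Mean log2(CPM + 1) of the 31 genes in each library (points), by region and genotype, at 4 weeks (left) and 12 weeks (right), with the group mean and SD as line and bar. Striatum is the highest region at 4 weeks, and in 12-week substantia nigra the 5 KO libraries (3.57 to 3.91) lie below the 5 WT libraries (4.03 to 4.16).

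The second comparison set WT at 12 weeks against WT at 4 weeks in each region. Age cannot be told apart here from cohort and handling. Among these genes higher levels at 12 weeks were more often called than lower ones: over the 6 regions 39 calls were higher and 7 lower. The shares of all genes given next count calls in either direction. How the calls of all genes split by direction is not given. Of all genes, called or not, 48.1% (nigra) to 53.2% (prefrontal cortex) had a higher estimate at 12 weeks. Thalamus had most, with 11 that rose and 1 that fell (22.6% of all genes called), then prefrontal cortex with 8 and 0 (19.1%), striatum with 6 and 2 (18.5%), somatosensory cortex with 5 and 2 (27.1%), nigra with 6 and 0 (18.6%) and hippocampus with 3 and 2 (17.7%). Calls were thus near the share of all genes in hippocampus, somatosensory cortex and nigra, somewhat more frequent in prefrontal cortex and striatum, and most in excess in thalamus. These shares were not compared by test. The median log2 change was 0.31 in nigra, 0.28 in prefrontal cortex, 0.17 in thalamus and between 0.03 and 0.07 in the others. Without the doubted libraries there were 10 calls in thalamus (median 0.11, 15.6% of all genes called), 8 in striatum (median -0.01, with 15 genes higher and 16 lower; 17.7%), 7 in somatosensory cortex (27%) and 4 in nigra (17.3%). Single libraries moved the counts in 2 regions. In nigra 10 were called without 4-week WT 92, 2 without 4-week WT 42 or 12-week WT 2, and 3 without 4-week WT 23 or 12-week WT 3 or 5. In hippocampus 2 were called without 4-week WT 23 or 42, and 3 without 4-week WT 142 or 913, any of the 5 12-week WT libraries, 4-week HET 53, 12-week HET 1 or 4 or 12-week KO 1.

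Ctss was called in all 6 regions, and Fcer1g, the common gamma chain of Fc receptors, Fcgr3, a low-affinity IgG receptor, and C1qb in 5 each. The Ctss call was lost in nigra without 4-week WT 42 or 12-week WT 2 (adjusted p up to 0.0588) or without the doubted libraries (0.0858), and in hippocampus without any of 5 WT libraries (up to 0.145). In prefrontal cortex Ctss stood at 27.4, 27.6, 29.9, 31.2 and 34.9 CPM at 4 weeks and at 42.5, 43.2, 44.3, 49.0 and 54.4 CPM at 12 weeks. The ages did not overlap, and the change was 0.63 (SE 0.10, adjusted p = 9.98e-05). Fcer1g in striatum stood at 3.72, 3.90, 4.31, 4.44 and 5.01 CPM at 4 weeks and at 5.21, 6.17, 6.36, 7.81 and 7.88 CPM at 12 weeks, again without overlap (0.67, SE 0.12, adjusted p = 0.000147). In thalamus it went from 2.86 to 3.94 CPM (median 3.49, 6 libraries) to 5.14, 5.28, 5.43, 6.06 and 6.66 CPM (0.72, SE 0.11, adjusted p = 2.15e-05). Fcgr3 rose by 0.58 in prefrontal cortex (SE 0.15, adjusted p = 0.00596), 0.51 in thalamus (SE 0.09, adjusted p = 0.000304) and 0.44 in striatum (SE 0.11, adjusted p = 0.00737). Tyrobp rose in thalamus (0.69, SE 0.11, adjusted p = 4.10e-05), where it stood at 5.35 to 7.31 CPM at 4 weeks and 9.65 to 11.1 CPM at 12 weeks, and in prefrontal cortex (0.59, SE 0.15, adjusted p = 0.00579). In thalamus 3 of the 6 WT libraries at 4 weeks are doubted. Without them the changes were 0.75 for Fcer1g (adjusted p = 0.000542), 0.62 for Fcgr3 (0.000656), 0.79 for Tyrobp (0.000182) and 0.54 for Ctss (0.000756). Siglech and Trem2, called in thalamus with all libraries, were not called then (0.153 and 0.163). In nigra Fcer1g (0.63, adjusted p = 0.0387) and Tyrobp (0.66, adjusted p = 0.0103) were called without the doubted libraries and not with all of them.

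All 3 C1q genes rose in thalamus, where C1qb changed by 0.50 (SE 0.08, adjusted p = 4.94e-05), C1qa by 0.40 (SE 0.08, adjusted p = 0.000475) and C1qc by 0.33 (SE 0.09, adjusted p = 0.0133). Without the doubted libraries the values were 0.56 (adjusted p = 0.000397), 0.43 (0.00414) and 0.40 (0.0167). The C1qc call was lost without 12-week WT 2 (adjusted p = 0.0617). C1qb there stood at 26.6 to 30.6 CPM at 4 weeks and at 34.4, 37.2, 41.8, 43.8 and 44.0 CPM at 12 weeks, with no overlap. In the other regions C1qb rose in all but nigra, and C1qa and C1qc were called in none. The C1qb call was lost without 12-week WT 1 in prefrontal cortex (adjusted p = 0.0706), without any of 4 libraries in striatum (4-week WT 913 and 12-week WT 1, 2 and 4, adjusted p up to 0.0740) and without any of 12 in hippocampus (adjusted p up to 0.212). No test compared the age change between regions. Ly86 rose in nigra (0.77, SE 0.19, adjusted p = 0.00490), prefrontal cortex (0.64, SE 0.17, adjusted p = 0.00668) and thalamus (0.49, SE 0.12, adjusted p = 0.00302), and it was the only nigral call kept under every setting and left-out library.

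Csf1r and Fcrls went the other way. Csf1r in striatum stood at 110, 121, 137, 139 and 143 CPM at 4 weeks and at 90.5, 90.6, 106, 108 and 111 CPM at 12 weeks, so that the ages touched only at 1 pair of libraries (-0.33, SE 0.08, adjusted p = 0.00297). It also fell in hippocampus (-0.25, SE 0.07, adjusted p = 0.0103), somatosensory cortex (-0.23, SE 0.07, adjusted p = 0.0115) and thalamus (-0.21, SE 0.06, adjusted p = 0.0161), calls that ended without 12-week WT 3 or 4 in hippocampus (adjusted p up to 0.0544), 4-week WT 914 in somatosensory cortex (0.0617) and 12-week WT 3 in thalamus (0.0592). Fcrls fell in striatum (-0.41, SE 0.11, adjusted p = 0.0107), somatosensory cortex (-0.37, SE 0.08, adjusted p = 0.00124) and hippocampus (-0.25, SE 0.09, adjusted p = 0.0450), the last lost without any of 26 of 31 libraries (adjusted p up to 0.171). In striatum it stood at 24.6, 26.4, 29.4, 33.9 and 33.9 CPM at 4 weeks and at 18.7, 18.9, 22.7, 23.6 and 25.2 CPM at 12 weeks. With all libraries edgeR made no age call in any region for 14 of the 31 genes, among them P2ry12, Tmem119, Olfml3, Inpp5d, Laptm5, Mpeg1, which encodes a pore-forming protein, and the transcription factor genes Sall1, Irf8 and Spi1. Of these, Sall1 was called lower in striatum without the doubted libraries (-0.31, SE 0.08, adjusted p = 0.00895), and also with the whole-number covariate. DESeq2 called Mpeg1 in nigra, and single libraries left out gave calls for Sall1 in striatum, Mpeg1 in nigra and Selplg, a selectin ligand gene, in thalamus. Of the 46 age calls 25 held under every setting and left-out library.

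Of the genes outside the 31, B2m of the class I complex rose in prefrontal cortex (0.70, SE 0.13, adjusted p = 0.000239), thalamus, hippocampus and somatosensory cortex. Cd47, a signal that restrains phagocytes, fell by 0.56 to 0.67 on the log2 scale in striatum, hippocampus, somatosensory cortex and prefrontal cortex (-0.67, -0.59, -0.59 and -0.56). Cd93, a C1q-receptor-like gene of endothelium, fell in 5 regions, by up to -1.20 in striatum (SE 0.18, adjusted p = 3.65e-05). Oligodendrocyte markers fell with age beside the rises, 9 or 10 of 10 in every region but prefrontal cortex, where 3 of 10 fell. Their summed level in WT striatum was 11842 to 23149 CPM at 4 weeks and 5288 to 6975 CPM at 12 weeks. CPM here is scaled with the factors described above, and whether the fall in such abundant transcripts moved the other levels was not tested.

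**Figure D3:**
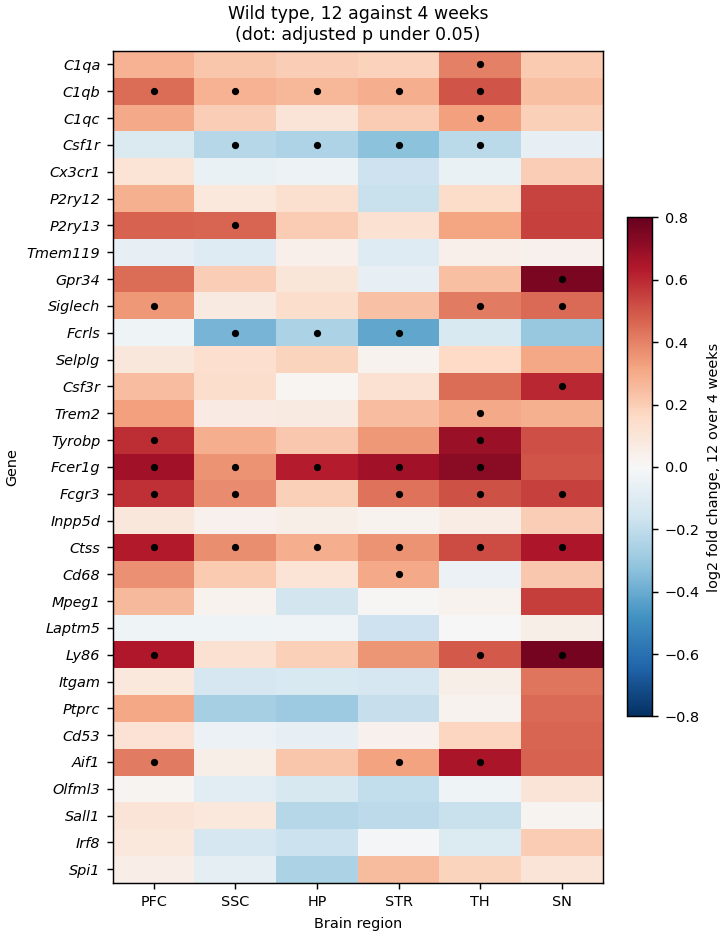
Log2 change of each of the 31 genes (rows) from 4 to 12 weeks in WT, by region (columns); red is higher at 12 weeks, blue is lower, and a dot marks an adjusted p under 0.05. Ctss is marked in all 6 regions and Fcer1g, Fcgr3 and C1qb in 5, and the lower calls belong to Csf1r and Fcrls.

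The third comparison asked where loss of Akap11 changed these genes. In KO against WT, 2 of 372 tests over the 12 region and age sets were called, both lower and both in 4-week striatum: C1qa and C1qb. There 29 of the 31 genes were lower, with a median of -0.17 against -0.00 over all genes, and 3.35% of all genes were called (1.75% lower). Without the doubted libraries 25 of the 31 were lower, the median was -0.13 and none was called, against 2.65% of all genes. That fit held only KO 12 and 932 and WT 913, 914, 42 and 142 beside the HET libraries. With so few KO libraries, a lost call cannot tell a smaller change from a smaller group.

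C1qb in 4-week striatum stood at 31.1, 36.3, 37.3, 39.1 and 40.4 CPM in WT, at 33.6 to 41.1 CPM in HET and at 27.2, 28.0, 29.5, 31.5 and 33.2 CPM in KO. The KO libraries were low, and 2 of them lay above the lowest WT library. The change was -0.30 (SE 0.07, adjusted p = 0.0298), from 36.8 ± 3.56 to 29.9 ± 2.49 CPM (SD, n = 5). C1qa stood at 28.0, 31.04, 34.3, 36.5 and 41.3 CPM in WT, at 30.9 to 37.3 CPM in HET and at 24.4, 24.7, 26.6, 27.6 and 30.8 CPM in KO, and changed by -0.35 (SE 0.09, adjusted p = 0.0433). C1qc, at 34.9 ± 4.55 CPM in WT and 28.6 ± 2.65 CPM in KO (SD, n = 5), did not pass the test (-0.28, SE 0.08, adjusted p = 0.0763). Olfml3, a secreted glycoprotein gene (-0.39, adjusted p = 0.0843), Fcrls (-0.30, adjusted p = 0.0951) and Csf1r (-0.22, adjusted p = 0.128) were next, while Fcer1g (-0.01), Mpeg1 (-0.02) and Inpp5d (-0.02) differed least.

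Both calls depended on single libraries. The C1qb call was lost without any of WT 914, 42 or 142 or KO 51, 161 or 163 (adjusted p from 0.0597 to 0.0852). For C1qa 12 of the 15 libraries each ended the call when left out (adjusted p up to 0.115), the exceptions being WT 913 and KO 12 and 932. Calls were also gained: C1qc without WT 913 (adjusted p = 0.0164), Olfml3 without WT 92 (0.0250) and Fcrls without KO 12 (0.0349). Of the KO libraries named, 51, 161 and 163 are those with cortical markers. Without the doubted libraries, with KO 12 and 932 alone in the KO group, the changes were -0.19 for C1qb (adjusted p = 0.320) and -0.24 for C1qa (adjusted p = 0.349). Cortical excitatory neuron markers summed to 228 to 2047 CPM in KO and 191 to 1222 CPM in WT striatum. In this comparison Aqp4, the astrocyte water channel gene, fell (-0.58, SE 0.12, adjusted p = 0.0139), as did Stab1 of border macrophages (-0.49, SE 0.12, adjusted p = 0.0353). Border macrophage markers summed to 11.2 to 19.4 CPM in KO and 19.1 to 23.2 CPM in WT, Cd209f being at 0 in every KO library. Striatal projection neuron markers were lower in 9 of 10 (median -0.33; summed 6570 to 20339 CPM in KO and 10532 to 19163 CPM in WT), oligodendrocyte markers in 9 of 10 (median -0.15; 9377 to 20801 and 11842 to 23149 CPM) and endothelial and mural markers in 10 of 11 (median -0.11; 232 to 368 and 223 to 404 CPM), with none of these called. Of the genes of the dissociation response Hspa1a, a heat shock gene, rose (0.98, SE 0.17, adjusted p = 0.00376) and Egr1, an immediate early gene, fell (-0.89, SE 0.23, adjusted p = 0.0463). Erythroid markers summed to 0.132 to 7.86 CPM in KO and 2.28 to 46.4 CPM in WT. The part of these markers in the C1q result was not tested. None of 27 other complement genes, 30 trophic and restraint genes or 21 activated microglia genes tested was called by edgeR.

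At 12 weeks no gene of the 31 was called in KO striatum, against 4.42% of all genes. C1qa changed by -0.05 (SE 0.12), C1qb by 0.01 (SE 0.10) and C1qc by -0.06 (SE 0.10). The C1qb values were 36.9, 41.8, 46.7, 47.1 and 48.4 CPM in WT and 40.7, 40.9, 41.0, 48.3 and 54.1 CPM in KO, with wide overlap. The difference between the ages in the KO effect was not called for any of the 3 (C1qb 0.31, SE 0.13, adjusted p = 0.659, and 0.20, adjusted p = 0.674, without the doubted libraries). Nor did the KO effect in striatum differ by test from the mean of the other 5 regions at 4 weeks, for C1qa (-0.17, SE 0.18, adjusted p = 0.792), C1qb (-0.13, SE 0.18, adjusted p = 0.862) or C1qc (-0.21, SE 0.16, adjusted p = 0.650). Over both ages none of 62 such tests was called by edgeR or by DESeq2, with 1 at an unadjusted p under 0.05, against 3.52% of all genes called at 4 weeks and 3.11% at 12 weeks. None was called at 4 weeks without the doubted libraries either (C1qa -0.11, C1qb -0.08 and C1qc -0.17), against 1.39% of all genes. Cd68 in 12-week striatum stood at 14.8, 15.9, 16.0, 16.8 and 20.4 CPM in WT and 17.0, 18.9, 20.1, 21.1 and 22.5 CPM in KO, and did not pass (0.23, SE 0.09, adjusted p = 0.175), except without WT 1 (adjusted p = 0.0365). Of 30 genes on the list of other complement genes Nptx1 (-0.97, SE 0.15, adjusted p = 0.00119) and Cd55, a complement inhibitor gene (-0.76, SE 0.16, adjusted p = 0.0128), fell there. Nptx1 is also on the list of cortical and hippocampal excitatory neuron markers.

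**Figure D4:**
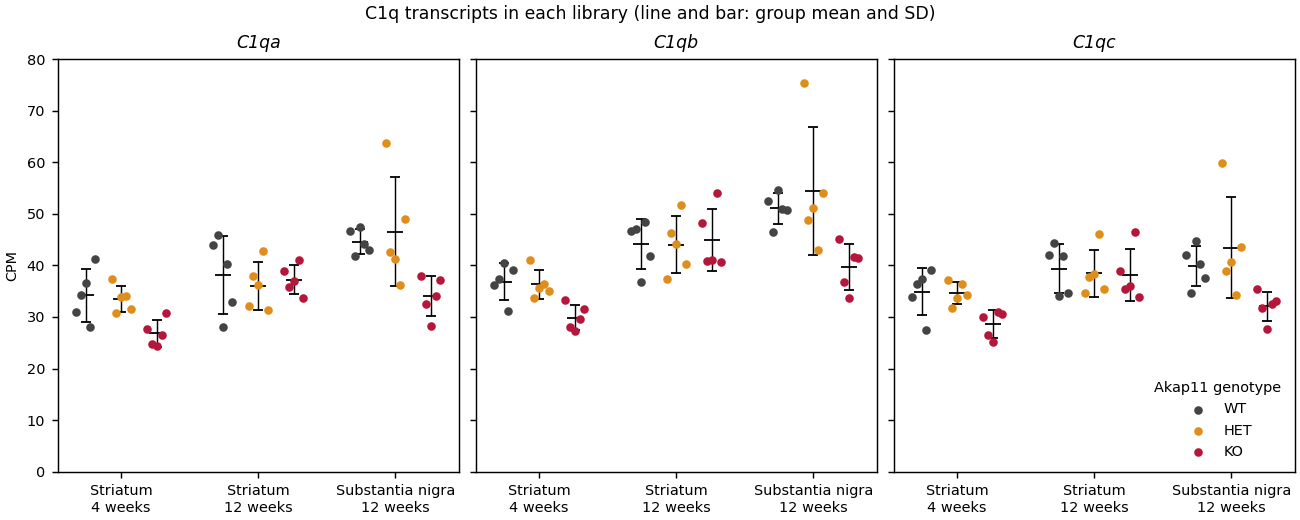
CPM of C1qa, C1qb and C1qc in each library (points) of 4-week striatum, 12-week striatum and 12-week substantia nigra, by Akap11 genotype, with the group mean and SD as line and bar. KO libraries sit low in 4-week striatum with overlap, level with WT in 12-week striatum, and in 12-week nigra all 5 KO libraries lie below all 5 WT libraries for C1qa and C1qb.

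In 12-week substantia nigra all 31 genes were lower in KO, and none passed the test. The median was -0.33, against -0.01 over all genes, and the smallest adjusted p was 0.649, with 0.0364% of all genes called. In 14 of the 31 genes every KO library lay below every WT library, which 0.728% of all genes did. At an unadjusted p under 0.05 stood 23 of the 31 in edgeR, against 6.17% of all genes, and DESeq2 called none. The 31 genes vary together from library to library, so these counts are not 31 separate observations. C1qa stood at 41.8, 42.9, 44.1, 46.7 and 47.4 CPM in WT, 36.3 to 63.7 CPM in HET and 28.3, 32.5, 34.1, 37.2 and 38.0 CPM in KO (-0.39, SE 0.12). Csf1r stood at 86.9, 90.4, 94.8, 96.3 and 110 CPM in WT and 66.1, 70.4, 75.6, 78.4 and 84.7 CPM in KO (-0.35, SE 0.10). Itgam, the CD11b chain of complement receptor 3, stood at 24.9, 25.4, 25.5, 26.2 and 28.9 CPM in WT and 16.8, 20.1, 20.8, 21.1 and 22.5 CPM in KO (-0.38, SE 0.10). In each of these genes the KO and WT libraries did not overlap, while HET libraries overlapped WT.

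The same was seen for Tmem119, with 19.5, 19.7, 20.1, 22.4 and 22.8 CPM in WT and 14.2, 14.8, 16.1, 17.2 and 19.3 CPM in KO (-0.36, SE 0.10). P2ry13, a purine receptor gene, stood at 9.90, 9.94, 10.3, 10.6 and 11.3 CPM in WT and 5.48, 7.37, 7.92, 8.34 and 8.57 CPM in KO (-0.47, SE 0.13). Irf8 had the most negative estimate (-0.53, SE 0.16) with overlapping groups, and Sall1 the one nearest 0 (-0.06, SE 0.09), at 27.0 to 33.2 CPM in WT and 24.3 to 32.0 CPM in KO. The mean score of the 31 genes was 4.03 to 4.16 in WT, 3.87 to 4.39 in HET and 3.57 to 3.91 in KO. Leaving out any of the 15 libraries left 0 of 31 higher and none called, with medians from -0.36 to -0.27. Beside this, all 10 dopamine neuron markers were lower (median -0.42; summed 2760 to 4243 CPM in KO and 3737 to 4886 CPM in WT), 8 of 10 border macrophage markers were lower (median -0.43; summed 14.9 to 18.2 CPM and 17.2 to 31.2 CPM), and 4 of 10 astrocyte and 7 of 10 oligodendrocyte markers were higher (medians -0.03 and 0.06). Their part in the difference was not tested. The KO effect at 12 weeks minus that at 4 weeks in nigra was below 0 for all 31 (median -0.44). EdgeR called none, the smallest adjusted p being 0.600 (Irf8, -0.84, SE 0.28), nor did DESeq2, and 0% of all genes were called. At an unadjusted p under 0.05 stood 7 of the 31 in edgeR, against 7.50% of all genes. Without the doubted libraries all 31 were again below 0 (median -0.55) and 13 had an unadjusted p under 0.05. The share of all genes at that threshold is not given for that fit. EdgeR called none there, the smallest adjusted p being 0.131 (Irf8, -0.97, SE 0.28).

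**Figure D5:**
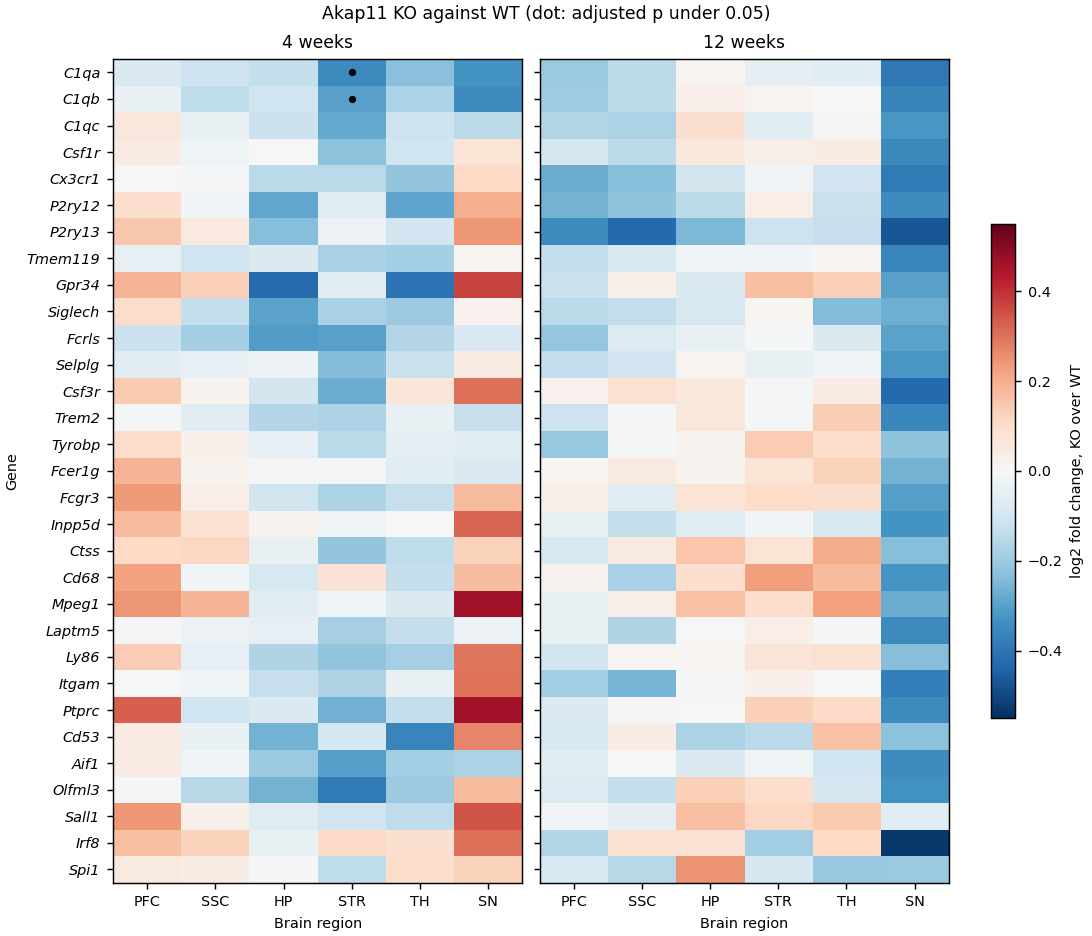
Log2 fold change of each of the 31 genes (rows) in KO over WT by region (columns), at 4 weeks (left) and 12 weeks (right); red is higher in KO, blue is lower, and a dot marks an adjusted p under 0.05. The 2 dots are C1qa and C1qb in 4-week striatum, and the 12-week nigra column is lower for all 31 genes without a dot.

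In the other 10 KO sets the medians lay between -0.13 and 0.13, and edgeR called none of the 31. The share of all genes called was 0.0125% and 0.0123% in prefrontal cortex (4 and 12 weeks), 0.0564% and 0.0252% in somatosensory cortex, 0.00609% and 0.00608% in hippocampus, 0.0128% and 0.0064% in thalamus and 0.00617% in 4-week nigra. In 4-week hippocampus 29 of 31 genes were lower (median -0.11), in 4-week thalamus 27 (median -0.13) and in 12-week prefrontal cortex 27 (median -0.10). The thalamic count was 26 without the doubted libraries (median -0.12). Beside the thalamic values, cortical and hippocampal neuron markers were lower in 6 of 8 tested (median -1.82) and striatal neuron markers in 8 of 10 (median -0.90), all 10 oligodendrocyte markers were lower (median -0.18) and all 11 endothelial and mural markers higher (median 0.24), with none called and their part not tested. In 4-week nigra 22 were higher (median 0.13), and 30 without the doubted libraries (median 0.22). P2ry13 in 12-week somatosensory cortex stood at 8.82, 8.93, 9.63, 10.4 and 10.5 CPM in WT and at 6.31, 6.71, 7.32, 7.35 and 8.33 CPM in KO. The groups did not overlap, as 0.428% of all genes did in that direction, but edgeR did not call it (-0.43, SE 0.10, adjusted p = 0.419), and DESeq2 did. None of the 31 was called without the doubted libraries in any of the 4 KO sets or 4 HET sets that hold them. Over all 372 KO tests 59 (15.9%) had an unadjusted p under 0.05 in edgeR, 23 of them in 12-week nigra, and DESeq2 called 5. Of all genes 2.91% (12-week hippocampus) to 17.9% (4-week striatum) had such a p in the 12 sets. Fcrls was the only gene of the 31 lower in KO in all 12 sets (-0.31 to -0.00), without a call in any. Aif1 and C1qa were lower in 11 of 12. The differences between the ages in the KO effect were called for no gene of the 31 in any region by edgeR or DESeq2, with 19 at an unadjusted p under 0.05, and 0% of all genes were called in any region.

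In HET against WT edgeR and DESeq2 called none of 372 tests, with 15 (4.03%) at an unadjusted p under 0.05, and log2 changes ran from -0.41 to 0.58. Of all genes 1.65% (12-week somatosensory cortex) to 16.3% (4-week thalamus) had such a p in the 12 HET sets. These comparisons share the WT libraries with those of KO. The share of all genes called at 4 and 12 weeks was 0.00626% and 0.00613% in prefrontal cortex, 0.00627% and 0.00629% in somatosensory cortex, 0% and 0.00608% in hippocampus, 0.00648% and 0.0064% in striatum, 0.00639% and 0.0064% in thalamus and 0% and 0.00606% in nigra. In 4-week nigra 28 of 31 were higher in HET (median 0.31, smallest adjusted p = 0.548), and 31 without the doubted libraries (median 0.24). The score there was 3.46 to 4.45 in HET and 3.51 to 3.86 in WT, so the HET libraries lay on both sides of WT. Dopamine neuron markers summed to 1360 to 5686 CPM in those HET and 185.5 to 3518 CPM in the WT libraries, and their part was not tested. In thalamus 30 of 31 were lower in HET at 4 weeks (median -0.12) and 28 at 12 weeks (median -0.12, Aif1 -0.41, adjusted p = 0.416). At 4 weeks 28 were lower without the doubted libraries (median -0.13). Beside the 4-week values, cortical and hippocampal neuron markers were lower in 6 of 8 tested (median -2.23; summed 816 to 1231 CPM in HET and 661 to 1520 CPM in WT), striatal neuron markers in 8 of 10 (median -1.13; 201 to 263 and 168 to 332 CPM) and oligodendrocyte markers in 10 of 10 (median -0.08). At 12 weeks endothelial and mural markers were lower in 10 of 11 (median -0.30; 280.3 to 330.3 CPM in HET and 338 to 394 CPM in WT), astrocyte markers in 9 of 10 (median -0.23; 3125 to 4291 and 3878 to 4819 CPM) and border macrophage markers in 7 of 8 (median -0.26). None of these was called, and their part was not tested.

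Within groups the 31 genes moved together. After subtraction of each group's mean, the 465 pairs of genes had a median Pearson r of 0.53 over all libraries (range -0.06 to 0.93), and 463 of them were above 0. Csf1r followed the mean of the other members most closely (0.89), then Laptm5, a lysosomal membrane protein gene (0.87), and Olfml3 (0.85). Sall1 followed it least (0.43), then Gpr34 (0.52) and Ptprc (0.55). C1qa (0.69), C1qb (0.67) and C1qc (0.77) lay in the middle. Of 13850 genes compared, which include the 31, the non-members most like the mean of the 31 included Vsir (0.81), Cmtm6 (0.79), Slco2b1 (0.78), Pld4 (0.75), Myo1f (0.74), Adgre1 (0.74), Nckap1l (0.73), Sft2d2 (0.73) and Rnase4 (0.73). Across the 36 group means, the order changed to Ncf1 (0.94), Apbb1ip (0.93), Ptpn6 (0.91), Lyrm2 (0.90) and Lrrc9 (0.89). Scores of other lists, taken the same way within groups, gave 0.82 for trophic and restraint signals, 0.71 for astrocyte markers, 0.71 for activated microglia, 0.61 for border macrophages, 0.42 for endothelial and mural cells, 0.42 for neutrophils and monocytes, 0.40 for other complement genes and -0.39 for pan-neuronal genes. The libraries share tissue pieces, depth and scaling, so these values only describe.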

How the data were processed

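The authors deposited expected counts (estimated counts) per gene symbol, which the submitters' processing notes tie to Salmon and mm10, with no version given. Per the labels' protocols, RNA came from frozen tissue dissected in a cryostat, and 200 ng went into a poly(A) library kit that keeps strand. The values were rounded to whole numbers. Whole numbers made up at most 5.55% of the values in 16 of the 4-week libraries and 17.3% or more elsewhere, and that difference was tried as a covariate.

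Samples were grouped by the labels' region, age and genotype. Tests were edgeR 4.0.16 quasi-likelihood fits (R 4.3.3, TMM scaling, default low-count filter) on all genes, with Benjamini-Hochberg adjustment within each comparison and a threshold of 0.05. KO and HET were compared with WT in 1 fit per region and age, ages in 1 fit per region, and regions in 1 fit of the WT libraries per age. The edgeR fits were tested on simulated data. DESeq2 1.42.0 and limma 3.58.1 served as alternatives. Scores are means of log2(CPM + 1). Exon lengths were from GENCODE M21, which matched 95.5% of symbols. Replicate pairs (390) differed beyond counting noise, with chi-square per degree of freedom of at least 7.97. The genes and the marker lists were chosen with earlier results of these data known. Of the 31, those given most fully are the C1q genes, those called by genotype, those called in most regional or age comparisons and those with the largest changes. C1qb was called lower in 2 regional comparisons, of which only that of 12-week somatosensory cortex is given above. From each other list up to 3 called genes with the largest changes per comparison were to be named, and further list members named in the text, such as Csf1, Apoe, Lpl, C4b, B2m and Cd47, were chosen after their values were seen. The non-members most like the 31 were ranked by Pearson r among genes with a mean log2 CPM of at least 1. 1 of the genes so ranked is not reported here.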

Additional observations from a re-analysis of the deposited data

Results flagged for a closer look

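The mean score of the 31 genes and the levels of C1qa, C1qb and C1qc were examined in each of the 36 groups. In 7 of these 144 sets of values 1 library stood apart from the rest of its group by Dixon's criterion. Chance alone gives about 5%, so the number flagged is about that given by chance. In 4-week WT nigra the library labelled 92 held 77.4 CPM of C1qa (others 21.8 to 39.7 CPM) and 90.1 CPM of C1qb (others 22.7 to 46.1 CPM). In 4-week HET hippocampus library 162 held 30.9 CPM of C1qa (others 26.5 to 27.6 CPM) and 34.0 CPM of C1qc (others 26.1 to 28.2 CPM). C1qb stood at 33.4 CPM in library 4 of 12-week KO somatosensory cortex (others 28.6 to 29.7 CPM). C1qc stood at 29.2 CPM in library 11 of 4-week HET thalamus (others 23.1 to 24.8 CPM). The mean log2(CPM + 1) of the 31 genes was 3.58 in library 932 of 4-week KO thalamus (others 3.40 to 3.45).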

How the results depend on the processing

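The count of 2 genes called in 4-week KO striatum became 1 with relative log expression scaling, 1 without the low-count filter, 1 with the whole-number covariate, 4 with DESeq2, 0 with only the 2 genotypes fitted and 0 without the 13 doubted libraries, which were chosen after seeing the data. The last of these fits held only KO 12 and 932 in the KO group. Leaving out 1 library from the full set gave 0 to 4. In the other 11 KO sets the count of 0 became 1 with DESeq2, and 0 to 1 on leaving out a library. HET counts stayed at 0 in the settings run. Age calls, 46 in all, ranged from 37 with only WT fitted to 51 with DESeq2, and from 42 to 50 on leaving out a library. Regional calls, 149 in all, ranged from 141 without the low-count filter to 161 with the replicate block or without the doubted libraries, and from 137 to 163 on leaving out a library. With the block, which treats libraries of the same number as paired, 146 of the regional calls were shared and the 12-week KO and HET counts were 0. Same-numbered libraries did not deviate together throughout. Between genotypes of 1 region, at 12 weeks, 6 of 15 pairs in nigra and 13 of 15 in hippocampus correlated above 0.1. Between regions in WT, the pairs that the regional block uses, 31 of 76 did at 4 weeks and 52 of 75 at 12 weeks. Beside the counts without single libraries given above, calls by region moved by over 1.5 times in 12-week hippocampus (4 to 9 with the block), 4-week somatosensory cortex (4 to 10) and 4-week hippocampus (1 to 3, both without the doubted libraries), and with age in hippocampus (5 to 3 without the low-count filter or with only WT fitted). In nigra the 6 age calls became 4 with only WT fitted or without the doubted libraries, and 9 with the whole-number covariate. The cause was not tested. No called change reversed its direction under the settings run. For the striatal KO effect against other regions, only striatal libraries were left out in turn.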

Other observations

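The library labelled 92 of 4-week WT nigra differed from the other 5 of its group across the 31 genes, in both directions. It lay above all 5 in 12 genes, below all 5 in 13 and within their range in 6. Trem2 stood at 17.0 CPM (others 6.75 to 8.72 CPM) and Tyrobp at 15.9 CPM (others 4.98 to 9.51 CPM). P2ry12 stood at 4.11 CPM (others 17.2 to 23.7 CPM), Itgam at 4.62 CPM (others 18.3 to 25.6 CPM) and Sall1 at 14.9 CPM (others 28.4 to 36.5 CPM).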
